A study of Mus musculus with 8 samples.

Results

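The distal miRNA cluster of the imprinted Dlk1-Dio3 region was measured in cortical basal progenitors of mouse embryos at 2 stages, embryonic days 13 (E13) and 16 (E16). The cluster lies on chromosome 12 and runs from miR-379 to miR-410. A mouse miRNA was taken as a member when the first genomic match listed for its array probe fell in the window that holds this cluster, with star arms (the less abundant strand of a hairpin) included. The rule used position only and no measured value. It found 52 miRNAs from 37 hairpins, out of 611 mouse miRNAs on the array. Members thus made up 8.51% of the mouse miRNAs and 8.24% of the mouse probes, each matched a single place, and the matches ran from chr12:110947281 to chr12:110981994 in the mm9 build.

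Total RNA of cells isolated by fluorescence-activated sorting was hybridised to one-colour Agilent miRNA arrays. Each stage had 4 arrays and 1 array per biological replicate, and the sample descriptions of both stages carry the tag WT. The labels name neither strain nor sorting gate. The design text names 3 litters for the 4 replicates of a stage, so some replicates may share a litter and p-values then measure only the spread between these samples.

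Basal progenitors, also called intermediate progenitors, divide in the zone above the ventricular layer, mostly to give neurons. The Dlk1-Dio3 region is imprinted: its non-coding RNAs, including the miRNAs of this cluster, are expressed from the maternal chromosome, and its protein-coding genes from the paternal one. The distal miRNAs are cut from long non-coding transcripts, are typical of embryo, placenta and brain, and have been studied for roles in neurogenesis and in dendrite growth.

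Mature sequences of the members were compared. RefSeq (GRCm38.p6) held 46 of the 52, with 45 distinct seeds, the bases 2 to 8 through which a miRNA chooses its targets. The 8 members that passed the filter for the stage test are shown first, in order along the cluster, with the seed in capitals.

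miR-379: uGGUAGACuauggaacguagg
miR-494: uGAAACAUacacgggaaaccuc
miR-495: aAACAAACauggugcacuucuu
miR-376a: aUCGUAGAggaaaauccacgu
miR-300: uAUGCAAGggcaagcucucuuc
miR-377: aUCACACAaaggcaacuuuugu
miR-541: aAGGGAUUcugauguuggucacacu
miR-410: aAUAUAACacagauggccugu

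All 8 seeds differ. Among the 46 members with a sequence, only miR-376b* and miR-376c*, neither of which was detected, had exactly the same seed. Beyond the seed some members were close copies, shown here because a probe may bind either of a close pair.

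miR-381: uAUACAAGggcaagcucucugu
miR-543: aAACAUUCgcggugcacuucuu
miR-376b: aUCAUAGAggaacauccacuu

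In an alignment without gaps miR-300 and miR-381 were identical at 19 of 22 positions, miR-495 and miR-543 at 18 of 22, and miR-376a and miR-376b at 18 of 21. Signal shared within these pairs was not tested. miR-381 was detected on no array while miR-300 was detected on 6, and the other pairs were detected together on at least 1 E13 array. In the RefSeq annotation 34 hairpin genes of members were found, and 8 of them overlap Mirg, a long non-coding RNA gene of the region, among them Mir377, Mir541 and Mir410.

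The arrays differed in brightness. The 75th percentile of the signal, over the mouse probes detected on every array, was 162 to 490 scanner units on the E13 arrays and 108 to 748 on the E16 arrays. A miRNA was called detected on an array when at least 0.5 of the spots of its brightest probe carried the scanner software's flag for well above background. By this measure 117 to 206 mouse miRNAs were detected on an E13 array and 76 to 170 on an E16 array, the fewest on E16 replicate 4. Row 2 of the slides held every E13 array and row 1 every E16 array, so the position on the slide and the stage cannot be told apart. miR-9 and miR-9*, typical of neural progenitors and neurons, and the neuronal miR-124 and miR-128 were detected on all 8 arrays. Of the other neuronal miRNAs listed, miR-218 was detected on 1 E13 array and 3 E16 arrays, and miR-138 on none. All listed markers of red blood cells (2), white blood cells (3), endothelium (2), mesenchyme (5) and hindbrain or spinal cord (4) were detected on none.

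More members of the cluster were detected at E13 than at E16. The 4 E13 arrays detected 5, 14, 22 and 9 members in order of replicate, and the E16 arrays 7, 5, 0 and 0. The stage means were 12.5 ± 7.33 (SD, n = 4) and 3.0 ± 3.56 (SD, n = 4), and the counts overlapped, since E13 replicate 1 had no more members than E16 replicates 1 and 2. In all, 22 of the 52 members were detected on at least 1 E13 array, against 206 of all 611 mouse miRNAs (33.7%). At E16 it was 7 of the 52, against 180 of all 611 mouse miRNAs (29.5%), and all 7 were among the 22. No member was detected on more E16 arrays than E13 arrays, 21 were detected on more E13 arrays, and miR-494 was detected on 2 of each. The remaining 30 members were detected nowhere.

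Brightness moved with these counts. Within E13, the brightest array, replicate 3, had the most members (22 of 206 miRNAs detected) and the dimmest, replicate 1, the fewest (5 of 117). The 7 members detected on a single array were all seen on E13 replicate 3. Across stages the order of brightness and that of the member count parted. E16 replicates 1 and 2 were brighter than every E13 array and detected 162 and 170 mouse miRNAs, yet only 7 and 5 members. E13 replicates 2 and 4 detected fewer miRNAs than either, and had 14 and 9 members. Members were 9.59% and 6.34% of the miRNAs detected on those E13 arrays, and 4.32% and 2.94% on the E16 pair. E13 replicate 1 stood with the E16 pair, at 4.27%.

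**Figure D1:**
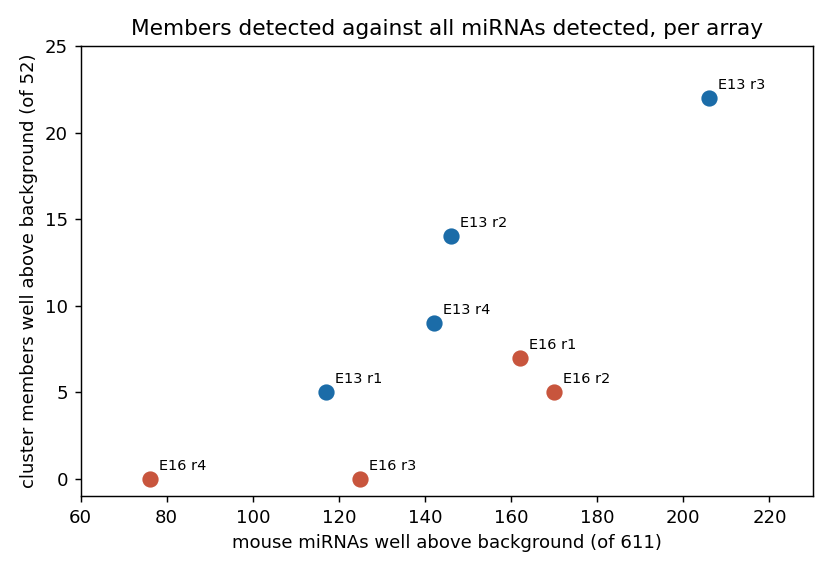
Members of the cluster detected on each array (vertical axis, of 52) against all mouse miRNAs detected on it (horizontal axis, of 611), 1 point per array, blue for E13 and red for E16. E16 replicates 1 and 2 detected 162 and 170 miRNAs with 7 and 5 members, while E13 replicates 2 and 4 detected fewer miRNAs and had 14 and 9 members.

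What an array could have shown was computed from its own brightness. Each of the 22 members detected at E13 was placed on each E16 array at its mean E13 level, scaled by that array's percentile, and set against the dimmest signal called well above background there. On E16 replicate 3, 16 of the 22 would have reached that signal, and on replicate 4 it was 3 (miR-379, miR-300 and miR-410). On replicates 1 and 2 all 22 did, but this count could not have been lower. The lowest level any miRNA was given, the floor defined below, exceeded that signal there (9.76 against 9.17 units on replicate 1). Of the 8 members in the stage test, miR-494 was lowest, at 26.7 and 32.8 units against 9.17 and 10.25. Reaching that signal does not ensure detection, since miR-376c measured 9.27 on replicate 1 and was not detected. At its brightness, E16 replicate 4 could not have shown most members at their E13 level.

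Detection was spread along the whole cluster. Measured from the match of miR-379, the members span 34.7 kb. Of 19 members in the first 10 kb, 7 were detected at E13 and 3 at E16. The next 10 kb held 14 members, with 6 and 2 detected, and the third stretch held 10, with 3 and 0. In the last stretch, beyond 30 kb, 9 members lay, with 6 detected at E13 and 2 at E16. The 2 ends of the cluster, miR-379 and miR-410, were each detected on 4 E13 and 2 E16 arrays, as were miR-376a and miR-300 at 14.8 and 15.3 kb. Among the 15 hairpins with both arms on the array, both arms were detected in 3 (miR-376a, miR-154 and miR-409), a single arm in 7 and no arm in 5. Of 9 star arms, 3 were detected, each on E13 replicate 3 only.

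**Figure D2:**
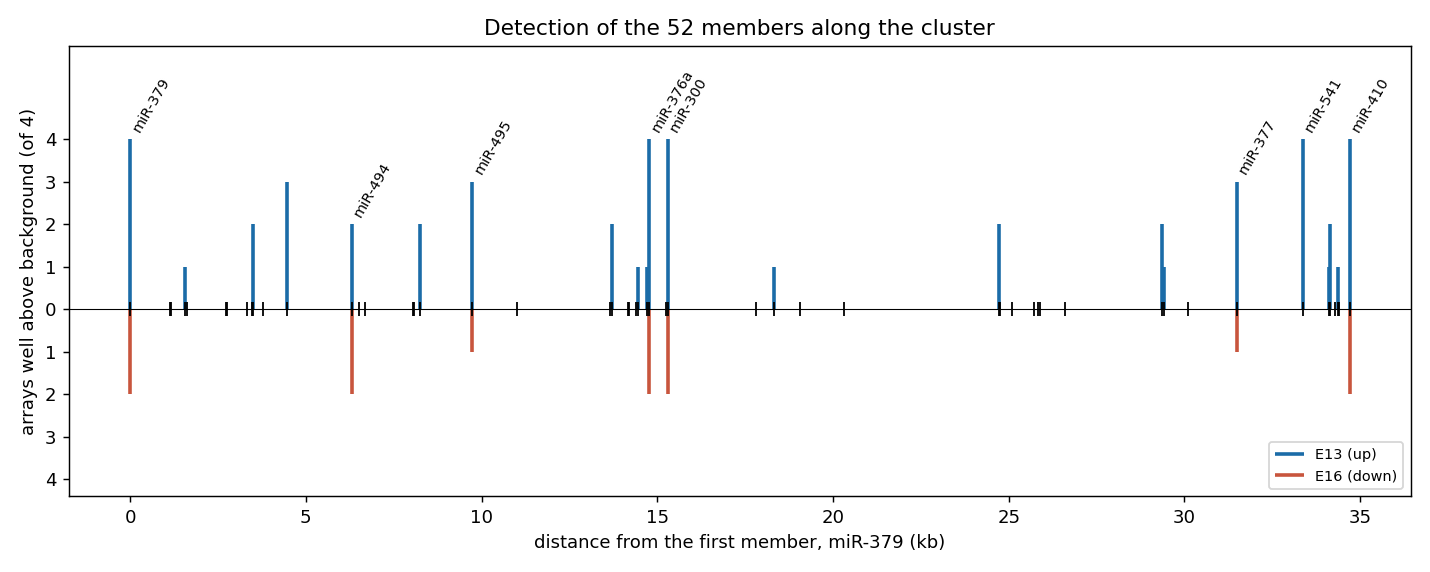
Number of arrays on which each member was detected (vertical axis, E13 upward in blue and E16 downward in red, of 4 each) against distance of its probe match from that of miR-379 in kb (horizontal axis, small black marks for all 52 members). Detected members lie from 0 to 34.7 kb, and no red bar is longer than 2.

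The named members are described from the miR-379 end, first by unscaled processed signal, which is background-subtracted brightness in scanner units and can be below 0. The scaled level used for the test divides this signal by the array's percentile, sets values under a common floor (-5.96 on the log2 scale) to the floor, and takes log2. Each level belongs to 1 probe, so levels of different miRNAs are not compared. The stage difference, E16 minus E13, was fitted with limma over all 153 mouse miRNAs detected on at least 4 of the 8 arrays, 8 of them members.

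In that test 7 of the 8 members were lower at E16 and none was higher, at an adjusted or an unadjusted p under 0.05. Over all 153 miRNAs 26.1% were called lower and 7.19% higher. The median log2 difference was -2.02 over the 8 members and -0.40 over the 153. The 8 are not a sample of the cluster, since 5 of them passed the filter on E13 arrays alone, and the count is given as a description. In 7 of the 8 every E16 value lay below every E13 value on the scaled log2 scale, as it did in 30.7% of the miRNAs tested. In these bulk samples fewer cells with the miRNAs and less of them per cell cannot be told apart.

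These calls rest on the scaling between arrays. With unscaled signals, an alternative added after the data were seen, the 8 members were again lower at E16, by a median of -1.01 on the log2 scale against 0.00 over all 153, but the spread between arrays was large. No member passed then (lowest limma adjusted p = 0.58, for miR-410), 1 member had an unadjusted p under 0.05, and over all 153 miRNAs 1 was called higher and 0 lower, with 11 at an unadjusted p under 0.05. All 7 passed also with a percentile over all mouse probes, which moved the median of all 153 to 0.44, and with quantile normalization, which moved it to -0.09. The median of the 8 members was -1.50 and -1.67 under these settings, or -1.94 and -1.58 relative to the median of all.

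miR-379, which opens the cluster, was matched at chr12:110947281-110947295. Its processed signal was 16.1, 24.8, 46.5 and 29.2 on E13 replicates 1 to 4, and 18.7, 11.7, 4.89 and -0.956 on E16 replicates 1 to 4. All E13 arrays detected it, as did E16 replicates 1 and 2, and unscaled E16 replicate 1 lay above E13 replicate 1. After scaling the stages no longer overlapped, at -3.43 ± 0.16 for E13 and -5.70 ± 0.45 for E16 (log2, SD, n = 4), with 2 E16 arrays at the floor. The call was lower at E16 (log2 difference -2.26, SE 0.23, limma adjusted p = 7.2e-05). Its size depended on the floor and the scaling: the difference was -1.66 with the floor at percentile 10 and -1.62 when all mouse probes set the percentile, so no fold is given.

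miR-494 was matched at chr12:110953586-110953598 and was the only tested member not called. It measured 8.90, 7.26, 16.8 and 25.4 on the E13 arrays, and 11.2, 31.4, 8.08 and 1.91 on the E16 arrays. The stages overlapped with and without scaling, and the brightest value of all came from an E16 array. Detection was on E13 replicates 3 and 4 and on E16 replicates 1 and 2. The log2 difference was -0.81 (SE 0.44, 95% interval -1.80 to 0.18, limma adjusted p = 0.17), and it was 0.02 with the percentile taken over all mouse probes. That interval holds both no change and a fall of 1.80 log2 units. Whether miR-494 differed from the other members was not tested.

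miR-495, at chr12:110957008-110957026, lies next to miR-543 in the cluster and resembles it in sequence. Its signal was 10.8, 17.7, 34.2 and 16.5 at E13, and 10.4, 8.45, 3.27 and -0.0935 at E16. Every E13 value, even before scaling, was above every E16 value, though E13 replicate 1 and E16 replicate 1 differed by little. It was detected on 3 E13 arrays and 1 E16 array. The call was lower at E16 (limma adjusted p = 2.4e-05), and no fold is given because 3 E16 values were at the floor.

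miR-376a, whose primary transcript is known to undergo adenosine-to-inosine editing in brain, was matched at chr12:110962039-110962054. Signals of 14.4, 14.2, 45.7 and 26.6 at E13 stood beside 25.9, 11.7, 5.58 and -1.60 at E16. Unscaled, E16 replicate 1 exceeded E13 replicates 1 and 2. Scaled values separated by little: the lowest E13 value was -4.48, on replicate 2, and the highest E16 value was -4.55, on replicate 1. The call was lower at E16 (log2 difference -1.82, SE 0.37, limma adjusted p = 0.0042). Both E16 replicates 2 and 4 were at the floor, and the difference was -1.26 with the floor at percentile 10 and -1.17 with all mouse probes, so again no fold is given. This was the weakest of the 7 calls, and it was lost when all 611 mouse miRNAs were tested without the detection filter (limma adjusted p = 0.054).

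miR-300, the neighbour of miR-376a at chr12:110962578-110962594, was detected on all E13 arrays and on E16 replicates 1 and 2. It gave signals of 23.3, 32.5, 63.9 and 37.1 at E13, and 27.7, 21.8, 8.14 and -0.0849 at E16. Only E13 replicate 1 was overtaken by an E16 array, and scaling removed that overlap. It passed the test as lower at E16 (log2 difference -2.16, SE 0.29, limma adjusted p = 0.00041), and the difference was -1.50 when all mouse probes set the percentile. E16 replicate 4 was at the floor.

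miR-377, at chr12:110978766-110978784, gave 8.51, 12.6, 23.9 and 18.3 on the E13 arrays. Its E16 signals were 10.2, 8.44, 3.80 and -0.0330. E16 replicate 1 was above E13 replicate 1 before scaling and below all E13 arrays after it. Detection was on 3 E13 arrays and 1 E16 array, and the call was lower at E16 (limma adjusted p = 7.2e-05), again with 3 E16 values at the floor.

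miR-541, at chr12:110980640-110980656, had the sharpest difference in detection of the 52 members, 4 E13 arrays against 0 E16 arrays. Signals were 13.8, 25.5, 28.7 and 17.2 at E13, and 5.63, 8.21, 1.89 and -0.134 at E16, with no overlap before or after scaling. The call was lower at E16 (limma adjusted p = 2.7e-05), but all 4 E16 values were at the floor, so that p is too small. Since no E16 array measured miR-541 above background, only a bound on the size holds: it was at least 2.40-fold higher at E13. The bound sets the mean E13 level against the dimmest signal that counted as well above background on each E16 array, or the floor where that was higher. It depends on the scaling, and without scaling the log2 difference was -1.12.

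miR-410, which closes the cluster at chr12:110981977-110981994, had signals of 19.9, 30.3, 60.3 and 38.8 at E13, and 16.8, 16.5, 7.03 and 0.677 at E16. The stages did not overlap before or after scaling. The scaled level was -3.09 ± 0.20 at E13 and -5.49 ± 0.34 at E16 (log2, SD, n = 4). All E13 arrays and E16 replicates 1 and 2 detected it. It was called lower at E16 (log2 difference -2.40, SE 0.20, limma adjusted p = 3.2e-05), and the difference was -1.74 when all mouse probes set the percentile. Only E16 replicate 4 was at the floor.

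**Figure D3:**
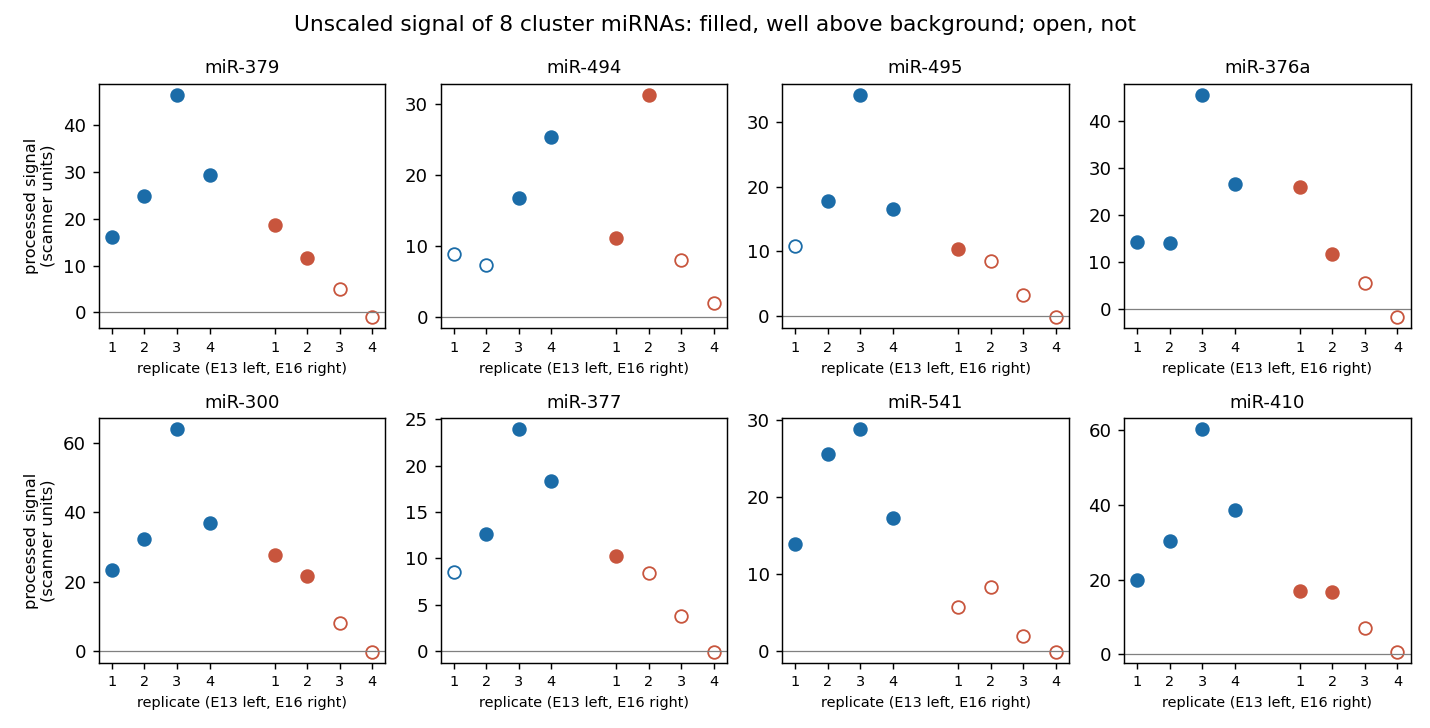
Unscaled processed signal in scanner units (vertical axis, a separate scale per panel) of the 8 tested members on the 4 E13 arrays (blue, left) and the 4 E16 arrays (red, right), with filled points for arrays that detected the miRNA. Before scaling the stages overlap in all panels except those of miR-495, miR-541 and miR-410.

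Before scaling, 3 of the 8 members (miR-495, miR-541 and miR-410) kept the stages apart, and after scaling 7 did. Both E16 arrays that detected members were the brightest of the series, so division by the percentile lowered them most. Where the floor holds several E16 arrays, as for miR-495, miR-377 and miR-541, the E16 spread is too small and the standard error with it.

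**Figure D4:**
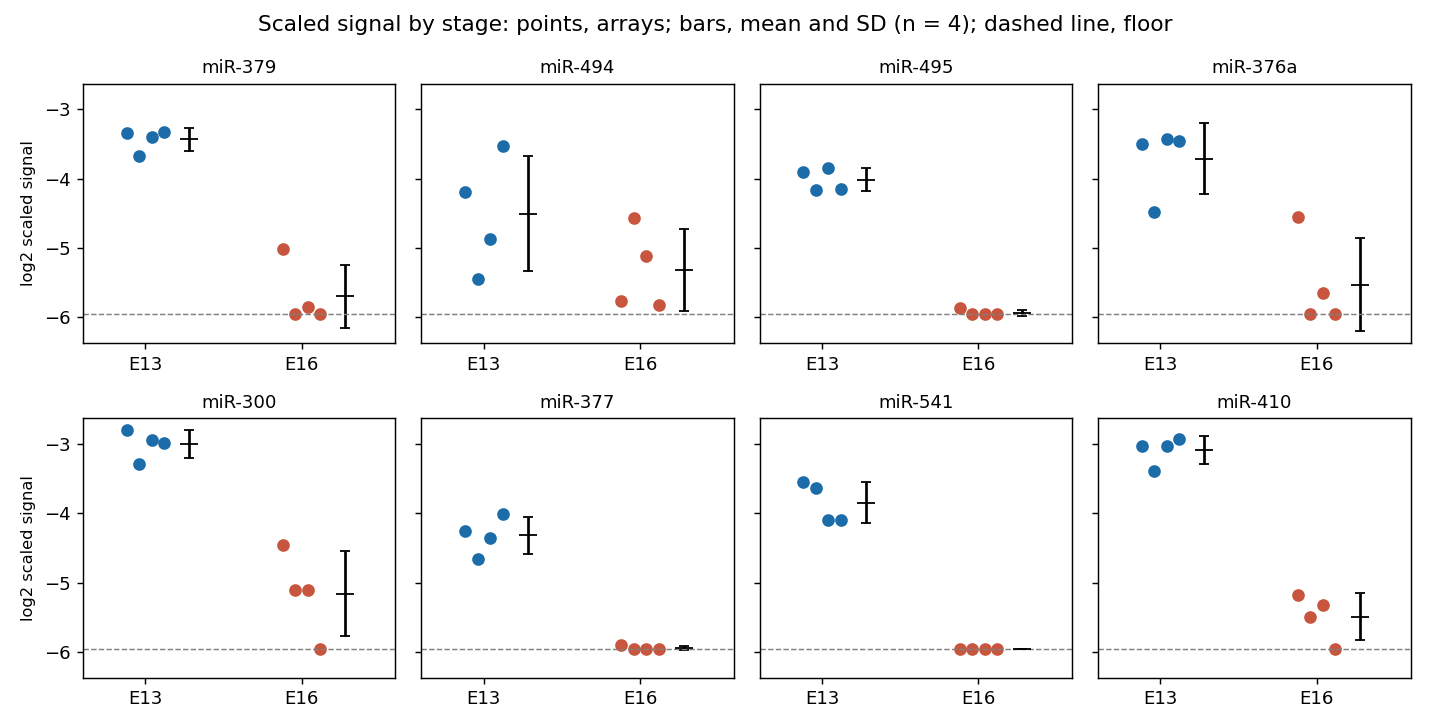
Scaled level (vertical axis, log2) of the 8 tested members by stage, 1 point per array, with the mean and SD of 4 arrays beside the points and a dashed line at the floor of -5.96. The stages overlap only for miR-494, and all 4 E16 points of miR-541 lie on the floor.

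Another 7 members were detected on at least 2 E13 arrays and no E16 array: miR-323-3p, miR-329, miR-543, miR-376c, miR-382, miR-154 and miR-409-3p. They were not tested under the filter. miR-329, which with miR-134 is known as an activity-induced miRNA of neurons, measured 9.40, 20.5, 30.2 and 14.7 at E13, and 7.24, 9.41, 3.05 and 0.172 at E16. It was detected on 3 E13 arrays, and E13 replicate 1 fell just short of E16 replicate 2 before scaling. miR-382 measured 9.63, 22.4, 19.1 and 11.5 at E13, and 5.07, 7.85, 2.62 and 0.617 at E16, without overlap. miR-543, studied as a regulator of N-cadherin in neurogenesis, measured 6.19, 11.9, 16.8 and 8.90 at E13, and 3.51, 5.44, 1.08 and 0.691 at E16, also without overlap.

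In miR-376c and miR-154, as in miR-329, the stages overlapped before scaling. miR-376c gave 6.68, 10.73, 20.1 and 11.9 at E13, and 9.27, 6.56, 2.36 and -1.21 at E16, so that E16 replicate 1 exceeded E13 replicate 1. miR-154 gave 5.04, 10.9, 15.0 and 9.32 at E13, and 8.35, 5.79, 3.61 and 1.05 at E16, with the same overlap. E13 replicates 2 and 3 alone detected miR-323-3p, at 15.6 and 16.9, and miR-409-3p, at 13.7 and 13.4. The E16 signals of miR-323-3p reached 5.05 at most, and those of miR-409-3p 2.46.

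Tested without the filter, over all 611 mouse miRNAs, 15 members were lower at E16 and 0 higher, where 7.36% of all miRNAs were lower and 1.31% higher (limma, adjusted p under 0.05). Of the 15, 9 had not been tested under the filter: miR-299*, miR-323-3p, miR-329, miR-543, miR-376c, miR-487b, miR-382, miR-154 and miR-369-5p. All 4 E16 values of each were at the floor, so the E16 SD was 0 and the adjusted p is too small. Of the 9, miR-299*, miR-487b and miR-369-5p were detected on 1 E13 array only. Because the floor follows brightness, miR-369-5p at 5.71 units on E13 replicate 1 was above it, and at 7.33 on E16 replicate 1 was not. Bounds of the 9 ran from at least 1.09-fold to at least 2.01-fold higher at E13, the last for miR-329. The median log2 difference was 0 over the 52 members and over the 611 miRNAs, since most of both sat at the floor.

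The 30 members detected nowhere include miR-381 and miR-134, which limits dendritic spine size through Limk1. Their signals lay between -2.95 and 7.21 scanner units on the 8 arrays, with a median of 0.023. The probes that stood for them had a median length of 17 bases (10 to 22), and those of the 15 members detected on at least 2 E13 arrays one of 19 bases (14 to 21). How far probe length set detection was not tested, and a miRNA not detected here may still be present below the reach of its probe.

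Probes of the same miRNA could disagree. miR-379 was read with the probe cctacgttccatagtC, and a second probe lacked only its last base, shown as a capital. The shorter probe measured 3.11, 3.67, 9.64 and 4.65 at E13, and 2.01, 2.47, -0.702 and -0.927 at E16, and was detected on E13 replicate 3 alone. For miR-410 the probe acaggccatctgtgttatA and its shorter form gave nearly equal values, with the shorter at 19.2, 30.1, 60.2 and 38.3 at E13 and 17.4, 16.1, 6.25 and 0.330 at E16. Its log2 difference of -2.42 was close to that of the longer probe. Over the 22 detected members the longest probe stood for the miRNA in 20, and more than 1 probe was detected in 11.

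The proximal miRNAs of the same imprinted region, upstream on chromosome 12, were also read. Of 25 on the array, 9 (36%) were detected at E13 and 3 (12%) at E16, against 33.7% and 29.5% of all mouse miRNAs. All 5 that passed the filter were called lower at E16, but all 5 reached its minimum on E13 arrays alone, so the count is a description only. miR-127, an antisense partner of Rtl1, had a log2 difference of -2.02 (SE 0.31, limma adjusted p = 0.00097), and miR-434-3p one of -1.95 (SE 0.33, limma adjusted p = 0.0015). Detection of miR-433, miR-431 and miR-370 was complete at E13 and absent at E16, which puts them at least 2.98-fold, 2.20-fold and 1.91-fold higher at E13. All 4 E16 values of each were at the floor, and these bounds depend on the scaling between arrays. Neuronal miRNAs did not move together. Of those listed as markers, miR-124, miR-128 and miR-218 had log2 differences of -0.07, -0.15 and 0.17, none of which passed the test, and the summed scaled level of the 4 neuronal miRNAs listed was 0.721 to 1.04 at E13 and 0.402 to 1.70 at E16. Of these 4, miR-138 was detected on no array. Outside the list, and chosen after their values were seen, miR-153, miR-137 and miR-124* of neurons were lower at E16. miR-153 was detected on 4 E13 arrays and 0 E16 arrays (limma adjusted p = 2.6e-05), and miR-137 and miR-124* had log2 differences of -1.02 and -0.86 (limma adjusted p = 0.026 and 0.0054). Also outside the list and chosen in this way, the neuronal miR-129-3p did not pass (log2 difference 0.11, limma adjusted p = 0.64). The part of cell composition in the fall of the cluster was not tested.

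**Figure D5:**
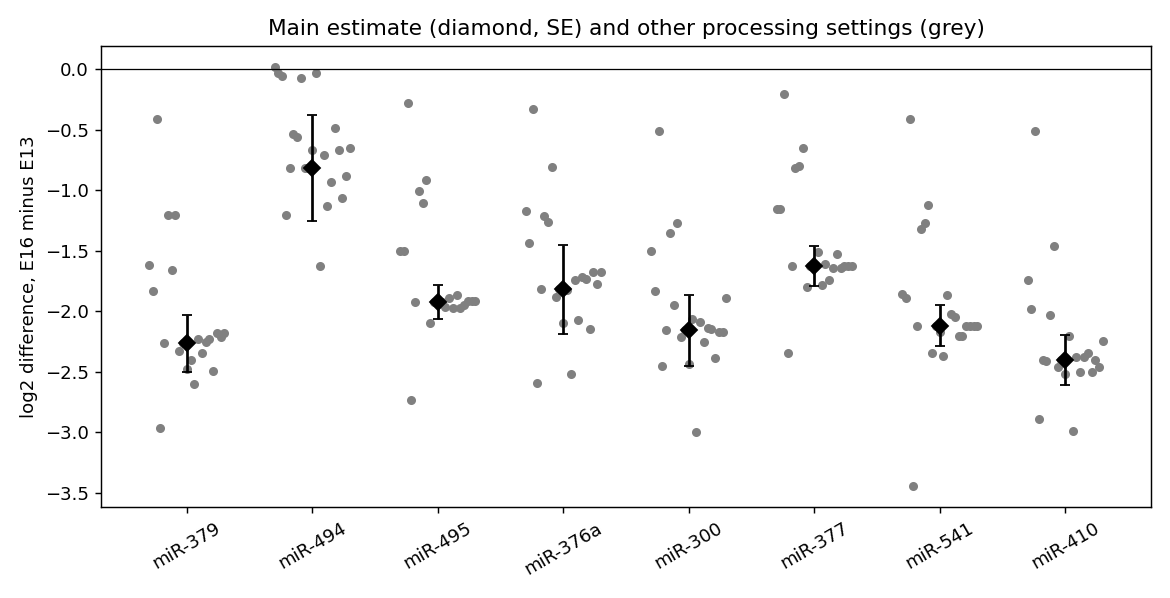
Log2 difference, E16 minus E13 (vertical axis), of the 8 tested members, with a black diamond and SE bar for the value reported above and a grey point for each alternative processing or left-out array (sideways position within a member has no meaning). All values of the 7 called members lie below 0, between -3.44 and -0.20, and miR-494 alone reaches 0.02.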

How the data were processed

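Per the file headers, the authors' deposited scanner files hold spot intensity values from Agilent Feature Extraction 10.7.3.1, with probes placed on mm9. Processed intensity is background-subtracted and not scaled between arrays. A deposited value table of log2 values, of unstated making, holds no tested member and was used only for counts over all miRNAs.

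Outlier and control spots were left out, spots of a probe averaged, and each array divided by its 75th percentile over probes detected on all 8 arrays. The floor was percentile 1 of scaled signals well above background. The probe with the highest mean stood for its miRNA, and probes tied at the floor were ranked by their scaled signal before the floor. limma 3.58.1 in R 4.3.3 (lmFit, eBayes) gave two-sided tests of E16 minus E13, with Benjamini-Hochberg adjustment over all miRNAs tested and a threshold of 0.05. On simulated data for this comparison with 153 miRNAs it recovered 73.0% of changes of 1 log2 unit and 95.6% of changes of 2, with 4.26% of calls false. How this recovery changes with values at the floor, or with the scaling between arrays, was not tested. The number of arrays limits the precision.

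Named are the 7 miRNAs given with the cluster, every member that passed the filter, was detected on at least 1 E16 or 2 E13 arrays or had an outlying array, and tested proximal miRNAs. Members named beyond this rule were chosen after their values were seen. The members and lists were chosen with earlier results of these data known. Alternatives varied scaling, background correction, filter, floor, probe summary, blocks, slides and arrays. RefSeq sequences matched by name, and 6 members had no entry.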

Additional observations from a re-analysis of the deposited data

Results flagged for a closer look

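Among the cluster miRNAs a single array stood apart from the other 3 of its stage in 5 cases, by Dixon's test on the scaled log2 level. Chance marks about 1 in 20 such groups when values are normally distributed, which values tied at the floor are not. E16 replicate 1 was the high array in 3 of them. miR-379 was at -5.02 there, with the other E16 arrays between -5.96 and -5.85. miR-495 was at -5.87 and miR-377 at -5.89 on the same array, with the other 3 at the floor of -5.96, so that any value above the floor is marked. E13 replicate 2 was the low array for 2 members with miR-376 names. miR-376a was at -4.48 there, with the other E13 arrays between -3.49 and -3.43, and miR-376c at -4.88, with the others between -4.63 and -4.60. Without E13 replicate 2 the log2 difference of miR-376a was -2.07 in place of -1.82.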

How the results depend on the processing

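The cluster had 7 members lower at E16 under every alternative that gave it a value, except without a filter, where 15 were lower, and without scaling. The filter on all 8 arrays and the deposited value table held no tested member and gave no value. Leaving out each array in turn left 7 in every case, with log2 differences of the 7 between -2.51 and -1.52. Signals without scaling between arrays left 0 members lower, with values from -1.46 (miR-410) through -1.27 (miR-300), -1.20 (miR-379), -1.12 (miR-541), -0.91 (miR-495) and -0.80 (miR-376a) to -0.65 (miR-377). Only miR-494 turned, to 0.021, when all mouse probes set the percentile. The smallest sizes came with normexp, whose offset of 50 exceeds most signals here: -0.51 to -0.20 for the 7, all still called. With the mean of all probes the members' median was -1.20, and with the floor at percentile 10 it was -1.27. Within slide 2 (E13 replicates 1 and 2, E16 replicates 2 and 3) the 7 were called, with a median over the 8 of -1.995. On both of its E16 arrays miR-495, miR-377 and miR-541 were at the floor, so their E16 spread there is too small. Within slide 3 the only E16 array was replicate 4, at the floor for all 7, so that setting says nothing of the stability of the 7. The difference in members detected per array, -9.50, was -12.0 with the gene-level flag, -8.25 if every spot and -10.75 if any spot had to pass, and -12.0 to -6.33 when 1 array was left out.

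Over all miRNAs, 40 were lower and 11 higher. The lower count was 16 (all mouse probes), 19 (total gene signal), 10 (detected on all 8 arrays), 25 (within slide 2), 88 (within slide 3), 11 (deposited value table) and 0 (no scaling), and 29 to 54 with 1 array left out. The higher count was 50 (all mouse probes), 22 (quantile normalization) and 1 (no scaling), and 9 to 17 with 1 array left out, 17 being without E16 replicate 4. A replicate block gave 7 members lower, with 35 miRNAs lower and 10 higher in all. Same-numbered arrays did not deviate together (correlations from -0.15 to 0.27), 1 of 8 arrays correlated best with its own number, and the numbers were not taken as pairs. The cause of these changes was not tested.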
